A study of Rattus norvegicus with 5 samples.

Results

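The 4 genes described here encode subunits of the ionotropic glutamate receptors of cortical neurons. They are Grin1 (ENSRNOG00000011726), Grin2a (ENSRNOG00000033942) and Grin2b (ENSRNOG00000008766), for subunits of the NMDA receptor, and Gria1 (ENSRNOG00000045816), for a subunit of the AMPA receptor. They were chosen by identifier, by a rule that uses no measured value, although earlier results of these data were known, and all 4 were among the 14815 genes present in all 4 deposited tables. The symbols came with the choice of genes, since the tables hold Ensembl identifiers alone. The RefSeq gene table used here holds the symbols with the subunit names GluN1, GluN2A, GluN2B and GluA1, but pairs no Ensembl identifier with a symbol.

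AMPA receptors carry the fast excitatory current at glutamatergic synapses. NMDA receptors open only when glutamate is bound and the membrane is depolarised, and the calcium they admit triggers synaptic plasticity. Every NMDA receptor contains GluN1, and its GluN2 subunits set its kinetics. In the cortex GluN2B predominates early in life and GluN2A is added as synapses mature. GluA1 is the AMPA receptor subunit best known for its insertion into synapses during long-term potentiation.

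RNA was sequenced from rat primary cortical neurons, prepared at embryonic day 18 and kept for 21 days in vitro. The 5 groups were a control, called GFP (green fluorescent protein) in the tables, and shRNA knockdowns of Ehmt1, Smarcb1, Mll3 and Mbd5. All 4 targets encode chromatin regulators: Ehmt1 a histone methyltransferase linked to gene silencing, Smarcb1 a subunit of the SWI/SNF remodelling complex, Mll3 (also Kmt2c) a histone methyltransferase linked to active enhancers, and Mbd5 a protein with a methyl-CpG-binding domain. The series title speaks of a network hyperactivity phenotype common to distinct genes of intellectual disability and autism, and the comparisons ask how each knockdown changed transcript levels. The labels list 1 sample per group and give neither the shRNA sequences nor the number of cultures, so the p-values measure a spread between libraries that may be technical.

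Each table gives a gene's mean normalized count over the libraries of both groups, a log2 fold change with its standard error (SE), and p-values, but no value of a single library. The genes of a table added up to 9963179 to 12264209 normalized counts for an average library. A gene counted as called when its deposited adjusted p was under 0.05. The targeted genes could not be checked, because their identifiers are not paired with symbols in the sources used here. All 4 tables share the control, so their results are not independent of each other. The highest SE of any gene was 0.29 in the Ehmt1 table, 0.31 in Mbd5, 0.45 in Smarcb1 and 0.56 in Mll3. The scale of the fold changes may therefore differ between tables. Whether the deposited fold changes were drawn toward 0 is not stated. So low a ceiling on the SE over all genes, those of low mean included, is what such drawing gives. The fractions of control given here are thus likely to understate the changes, and the intervals and implied levels to carry the same error. In bulk RNA, fewer cells of a type and less RNA per cell cannot be told apart.

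The direction of change of the subunit transcripts differed between the knockdowns. In the Ehmt1 knockdown, the 3 NMDA receptor transcripts rose by 1.62-fold to 2.07-fold and Gria1 stood at 0.993 of control, a value that did not pass the test. In the Smarcb1 and Mll3 knockdowns all 4 transcripts fell, to between 0.189 and 0.443 of control with Smarcb1 and between 0.200 and 0.360 with Mll3. In the Mbd5 knockdown all 4 values lay below control, between 0.610 and 0.794, and none passed the test. The plot of fold changes by knockdown shows these values with their intervals.

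**Figure D1:**
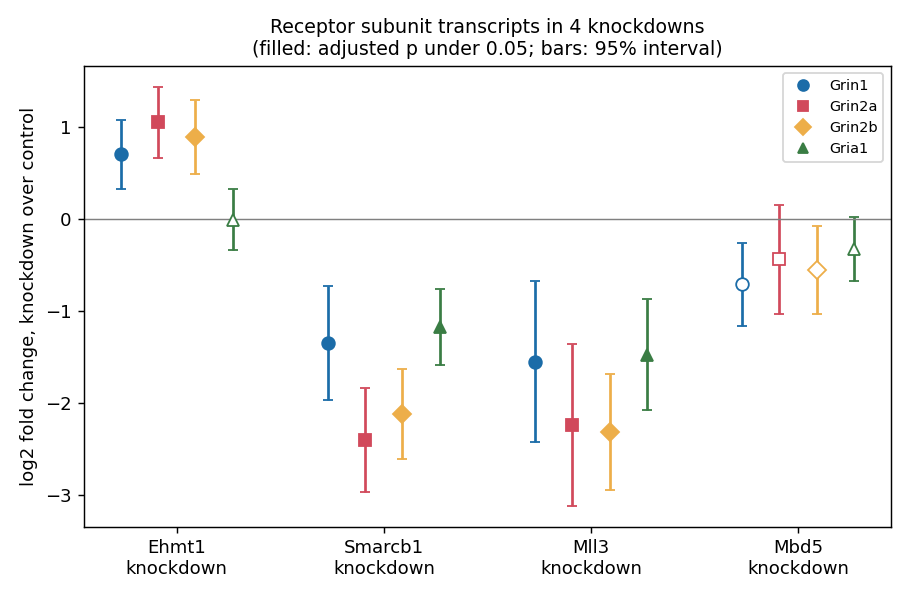
Log2 fold change of Grin1, Grin2a, Grin2b and Gria1 (y axis, knockdown over control) in each knockdown (x axis). Filled symbols passed an adjusted p-value of 0.05, bars are 95% intervals (1.96 SE each side), and the 3 NMDA receptor genes lie above 0 with Ehmt1 while all 4 genes lie below -1 with Smarcb1 and Mll3.

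The direction of a deposited fold change is not stated, and it was read as higher in the knockdown for positive values of the Ehmt1 table and as higher in the control for the other 3. All values here are given as knockdown over control, so the deposited signs of those 3 tables are turned round. The mean counts bear on this reading. If both groups carry equal weight, a gene's mean and fold change together imply its control level, and the control is one group by name. Over 6644 genes with a mean of at least 200 in every table, the 4 members left out, this reading gave the smallest SD of the implied log2 control level between tables among the 16 possible readings. That SD was 0.030, against 0.16 for the next reading, in which the sign of the Ehmt1 table is turned round.

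The implied control levels of each subunit gene lay close together under that reading. With the tables brought to one scale, the implied control level of Grin1 was 1215 normalized counts in the Ehmt1 table, 1113 in Smarcb1, 1092 in Mll3 and 1120 in Mbd5. The highest of these was 1.11 times the lowest, and the same ratio was 1.12 for Grin2b, 1.02 for Gria1 and 1.32 for Grin2a. With the sign of the Ehmt1 table turned round, that table would put the control level at 1973 for Grin1, 910 for Grin2a and 3088 for Grin2b, above every level implied by the other 3 tables. For Gria1, whose fold change in the Ehmt1 table was near 0, it would give 942, so this gene carries no information on that sign.

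**Figure D2:**
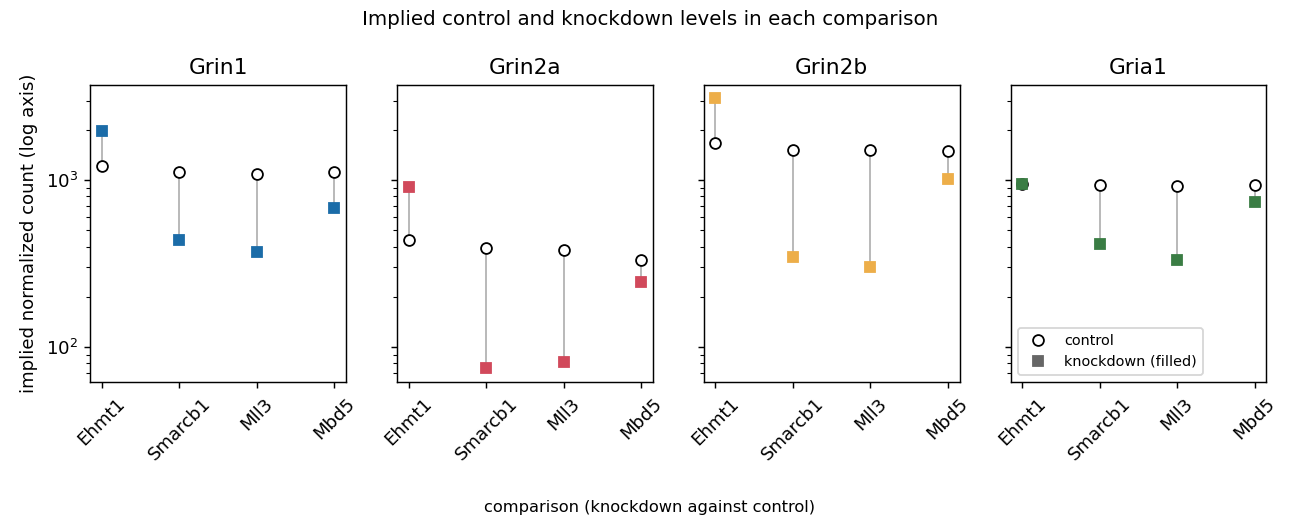
Implied normalized counts (y axis, log scale) of the control (open circles) and the knockdown (filled squares) in each comparison (x axis), one panel per gene, with the tables brought to one scale. Control circles of a gene lie within 1.32-fold of each other, and the knockdown squares of the 3 NMDA receptor genes are above control with Ehmt1 and below it in the other 3 comparisons.

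Grin1 encodes GluN1, the subunit that no NMDA receptor can lack. Its mean normalized count was 1383 in the Ehmt1 table, 800.7 in Smarcb1, 732.5 in Mll3 and 1005 in Mbd5. On the common scale, against control levels of 1092 to 1215, the implied level was 1973 with Ehmt1, 683 with Mbd5, 438 with Smarcb1 and 372 with Mll3. The Ehmt1 knockdown was thus the one above control.

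In the authors' deposited table for Ehmt1, Grin1 rose by a log2 fold change of 0.70 (adjusted p = 0.0124, SE 0.19). In the authors' deposited table for Smarcb1 it fell to a log2 value of -1.35 (adjusted p = 0.000453, SE 0.32). It also fell in the authors' deposited table for Mll3, at -1.55 (adjusted p = 0.00762, SE 0.45). For Mbd5 the authors' deposited table gave -0.71 (adjusted p = 0.05095, SE 0.23), just outside the threshold; a Benjamini-Hochberg adjustment over all 4 tables together gave 0.0349. As a fraction of control, the 95% intervals were 1.25 to 2.11 (Ehmt1), 0.448 to 0.833 (Mbd5), 0.256 to 0.604 (Smarcb1) and 0.186 to 0.624 (Mll3). The interval for Ehmt1 stood apart from the other 3, and those for Mbd5, Smarcb1 and Mll3 overlapped. Overlap is not a test of a difference, and the order of these values was not tested.

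The sequence at the start of Grin1 is shown because this gene alone of the subunit genes had an entry in the promoter table. Grin1 passed the test in 3 comparisons, as did Grin2a and Grin2b. RefSeq's build GRCr8 places the window at chr3:28528705-28529004 on the minus strand, from 250 bases before the start of the gene to 50 after it. It is given as context only, since the tables hold transcript counts and no measurement of chromatin, and the submitters' processing notes name the older build Rnor_6.0.
Grin1: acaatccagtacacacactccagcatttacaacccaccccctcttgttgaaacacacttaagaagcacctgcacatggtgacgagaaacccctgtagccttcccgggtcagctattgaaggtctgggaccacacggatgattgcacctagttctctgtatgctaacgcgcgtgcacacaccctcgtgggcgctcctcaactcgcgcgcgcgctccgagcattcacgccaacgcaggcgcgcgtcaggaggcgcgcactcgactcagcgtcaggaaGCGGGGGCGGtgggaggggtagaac
The capitals mark 2 overlapping motifs, searched on both strands. Both lie in the last 50 bases of the window, after the start of the gene. GCGGGGGCG, the motif of the Egr family of activity-induced factors, was found at bases 276 to 284 of the window and in 2.73% of 33469 promoters of the same length. GGGCGG, the GC box bound by Sp1-type factors, was found at bases 280 to 285 and in 33.1% of those promoters. The window held 25 CpG dinucleotides, more than 83.4% of promoters, whose median was 7. Grin2a, Grin2b and Gria1 had no entry in the promoter table.

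Grin2a encodes GluN2A, the GluN2 subunit that is added as cortical synapses mature. It had the lowest counts of the 4 genes, with means of 586 (Ehmt1), 242 (Smarcb1), 233 (Mll3) and 322 (Mbd5) normalized counts. On the common scale the control level lay between 333 and 440 and the knockdown level was 910 with Ehmt1, 245 with Mbd5, 81.4 with Mll3 and 74.5 with Smarcb1. Counts of different genes were not compared as levels, because transcript lengths were not at hand.

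Grin2a had the largest rise of the 4 genes in the Ehmt1 comparison, at 1.05 on the log2 scale in the authors' deposited table (adjusted p = 2.16e-05, SE 0.20). It had the largest fall of the 4 genes in the authors' deposited table for Smarcb1, at -2.40 (adjusted p = 1.10e-14, SE 0.29). In the authors' deposited table for Mll3 it fell by 2.24 on the log2 scale (adjusted p = 2.70e-05, SE 0.45). As a fraction of control, Grin2a was at 2.07 (95% interval 1.58 to 2.70) with Ehmt1, 0.189 (0.128 to 0.279) with Smarcb1 and 0.212 (0.115 to 0.391) with Mll3. The intervals of Smarcb1 and Mll3 overlapped over most of their width. For Mbd5 the authors' deposited table gave -0.44 (adjusted p = 0.531, SE 0.30), and the 95% interval, 0.489 to 1.11 of control, included no change.

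Grin2b encodes GluN2B, the GluN2 subunit of early cortical receptors. Its means were 2063 (Ehmt1), 962 (Smarcb1), 908 (Mll3) and 1399 (Mbd5) normalized counts. On the common scale the control level was 1493 to 1666 and the knockdown level was 3088 with Ehmt1, 1017 with Mbd5, 348 with Smarcb1 and 303 with Mll3. The implied level was thus highest with Ehmt1 and lowest with Smarcb1 and Mll3, as for Grin1 and Grin2a, an order of values that was not tested.

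In the authors' deposited table for Ehmt1, Grin2b rose by 0.89 on the log2 scale (adjusted p = 0.00111, SE 0.21), or 1.85-fold (95% interval 1.40 to 2.45). By the size of the Wald score in the authors' deposited tables, its fall with Smarcb1 ranked 45 among 13474 genes and its fall with Mll3 ranked 56 among 14107. In log2 units the authors' deposited tables gave -2.12 for Smarcb1 (adjusted p = 3.21e-15, SE 0.25) and -2.32 for Mll3 (adjusted p = 1.22e-10, SE 0.32). They left 0.230 (95% interval 0.164 to 0.322) and 0.200 (0.130 to 0.310) of the control level, and the intervals overlapped. With Mbd5 it was -0.55 (SE 0.25) in the authors' deposited table, with an unadjusted p of 0.0237 and an adjusted p of 0.228.

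Gria1 encodes GluA1, the AMPA receptor subunit of the set. Its means were 821 (Ehmt1), 696 (Smarcb1), 630 (Mll3) and 937 (Mbd5) normalized counts. On the common scale the control level lay between 927 and 949, the narrowest range of the 4 genes, and the knockdown level was 942 with Ehmt1, 744 with Mbd5, 414 with Smarcb1 and 333 with Mll3. No knockdown level lay above the highest control level.

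In the authors' deposited table for Ehmt1, Gria1 had a log2 fold change of -0.0099 (adjusted p = 0.998, SE 0.17). The 95% interval ran from 0.789 to 1.25 of control, so changes within that range were not excluded. In the authors' deposited tables it fell to log2 values of -1.17 with Smarcb1 (adjusted p = 1.48e-06, SE 0.21) and -1.47 with Mll3 (adjusted p = 5.56e-05, SE 0.31). These falls left 0.443 (95% interval 0.332 to 0.591) and 0.360 (0.237 to 0.546) of control, again with overlapping intervals. For Mbd5 the authors' deposited table gave -0.33 (adjusted p = 0.360, SE 0.18).

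The counts of called members stand beside the share of all genes called in the same direction. With Ehmt1, 3 of 4 members were called higher, where 2.47% of 12728 genes were called higher. With Smarcb1, 4 of 4 were called lower, where 8.39% of 13474 genes were. With Mll3, 4 of 4 were called lower, where 8.34% of 14107 genes were. With Mbd5, 0 of 4 were called, where 3.57% of 12590 genes were called in either direction. At an unadjusted p-value under 0.05 of the deposited DESeq2-type Wald test, 2 of 4 passed with Mbd5, Grin1 and Grin2b, both below control, where 9.82% of genes were below control at that level. All 4 members carried an adjusted p-value in all 4 tables, so no member was lost to the filter on low means.

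Among genes with a mean of at least 200, most members lay in a tail of the distribution. The median log2 fold change of the 4 members was 0.80 with Ehmt1, -1.73 with Smarcb1, -1.89 with Mll3 and -0.50 with Mbd5. The median over all such genes was -0.041, 0.038, 0.064 and 0.018 in the same order. With Ehmt1, 34 of 6845 genes had a higher value than Grin2a, 76 than Grin2b and 167 than Grin1, whereas 3067 had a higher value than Gria1. With Smarcb1, 15 of 7454 genes had a lower value than Grin2a, 27 than Grin2b, 162 than Grin1 and 246 than Gria1. With Mll3, 39 of 7322 genes had a lower value than Grin2b, 47 than Grin2a, 188 than Grin1 and 226 than Gria1. With Mbd5, 224 of 7659 genes had a lower value than Grin1, 463 than Grin2b, 779 than Grin2a and 1171 than Gria1.

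**Figure D3:**
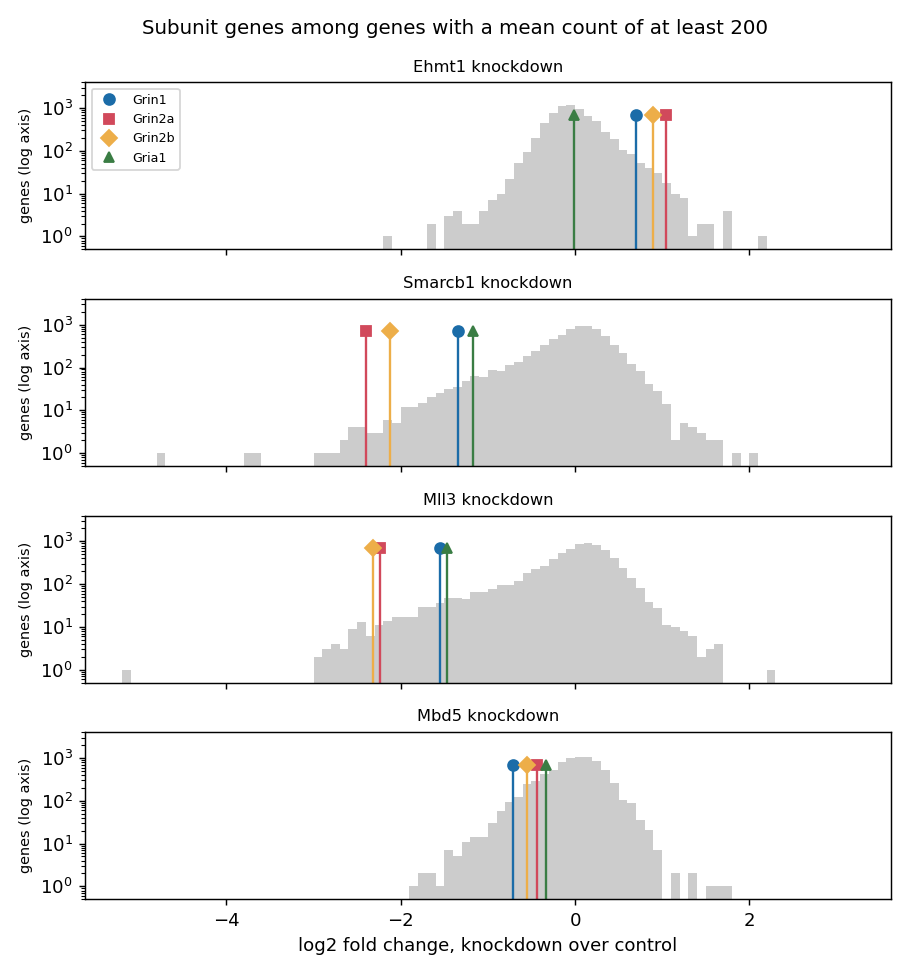
Number of genes (y axis, log scale) by log2 fold change (x axis, knockdown over control) among genes whose mean normalized count was 200 or more, one panel per knockdown; coloured lines mark the 4 subunit genes. The 3 NMDA receptor genes lie in the upper tail with Ehmt1, all 4 genes lie in the lower tail with Smarcb1 and Mll3, and Gria1 lies at the centre with Ehmt1.

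The members differed from each other in size of change. With Smarcb1 the log2 fold change of Grin2a was 1.06 units below and that of Grin2b 0.77 units below that of the obligatory subunit gene Grin1, so that relative to Grin1 transcript Grin2a was at 0.481 and Grin2b at 0.585 of the control ratio. With Mll3 these ratios were 0.623 and 0.588. With Ehmt1 they were 1.27 and 1.14, and with Mbd5 1.21 and 1.12. The GluN2 transcripts thus had the more extreme values in 3 comparisons, but the 95% intervals of Grin1 and of both GluN2 genes overlapped in each comparison, and the differences were not tested.

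The ratio of Grin2a to Grin2b is often used as a marker of receptor maturation. Relative to control it was 1.11 with Ehmt1, 0.822 with Smarcb1, 1.06 with Mll3 and 1.08 with Mbd5. On the log2 scale the largest of these departures, -0.28 with Smarcb1, was smaller than the SE of Grin2a itself (0.29). Both genes come from the same libraries, so the SE of their ratio cannot be had from the SE of each gene. A shift between the GluN2 transcripts was therefore not tested.

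Gria1 differed in size of change from all 3 NMDA receptor genes with Ehmt1, and from Grin2a and Grin2b with Smarcb1 and Mll3. Its gap from Grin1 was only 0.17 with Smarcb1 and 0.079 with Mll3 on the log2 scale. With Ehmt1 the log2 fold change of Gria1 was lower than that of Grin1 by 0.71, than that of Grin2b by 0.90 and than that of Grin2a by 1.06. The upper end of the 95% interval of Gria1 and the lower end of that of Grin1 both came to 0.32, and those of Grin2b and Grin2a began at 0.49 and 0.66. With Smarcb1 the log2 fold change of Gria1 was -1.17, against -1.35 for Grin1, -2.12 for Grin2b and -2.40 for Grin2a. With Mll3 it was -1.47, against -1.55, -2.32 and -2.24 in the same order. Gria1 thus had the value nearest to 0 in all 4 comparisons, the Mbd5 comparison included, and its gaps from Grin2a and Grin2b with Smarcb1 were wider than those with Ehmt1. These differences between genes were not tested.

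Likeness of pattern was measured as the root mean square difference of log2 fold change over the 4 comparisons, among 6648 genes with a mean of at least 200 in every table. Of the 6647 other genes, the one nearest to Grin2a was Grin2b, at 0.18. Grin2a was in turn the gene ranked 2 from Grin2b. Grin1 ranked 68 from Grin2a and 68 from Grin2b, at 0.67 and 0.56. In the other direction, Grin2a ranked 519 and Grin2b 345 from Grin1. The subunit gene nearest to Grin1 was Gria1, at 0.41 and rank 151. From Gria1 the ranks were 339 for Grin1, 1500 for Grin2b and 2295 for Grin2a. The ranks also depend on how many genes have values of like size. With Smarcb1, only 15 of 7454 genes had a lower value than Grin2a and 27 than Grin2b, so few genes could lie near them. The 4 comparisons share their control, and both genes of a pair come from the same libraries, so these distances are a description. Other genes are not named, since their identifiers carry no symbol here.

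Precision was lower for these genes than for most genes of like abundance. In 14 of the 16 values the SE was above the median of the 500 genes nearest in mean count, the exceptions being Gria1 in the Ehmt1 and Mbd5 tables. For Grin1 in the Mll3 table, the SE of 0.45 was above that of 99.2% of such genes, whose median was 0.25. For Grin2a in the Mbd5 table, the SE of 0.30 was above that of 99.4% of such genes, whose median was 0.21. Gria1 had the smallest SE of the 4 genes in every table, and in the Ehmt1 table only 6.40% of genes of like abundance had a smaller one.

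Reads assigned to no annotated feature followed the same order of knockdowns as the members' median, and none of their values had an adjusted p under 0.05. In the authors' deposited tables their log2 fold change was 0.11 (SE 0.19) with Ehmt1 and -0.15 (SE 0.21) with Mbd5. It was -0.47 (SE 0.20) with Smarcb1 and -0.53 (SE 0.24) with Mll3. The adjusted p was 0.959, 0.810, 0.122 and 0.186 in that order. The unadjusted p of the deposited Wald test was 0.570, 0.476, 0.0191 and 0.0289. The part of this shift in the subunit values was not tested. Markers of neurons and glia could not be read, so a difference in the cell makeup of the cultures was not tested. In the RefSeq table each of the 4 genes overlaps 1 other gene, Lrrc26 in the case of Grin1, and no source used here says whether reads were counted by strand.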

How the data were processed

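The data are 4 tables of the authors' comparisons of a knockdown with the control; the submitters' processing notes name STAR 2.5.2b, DESeq2 and the build Rnor_6.0. Annotation, strand setting and number of libraries are not given in the sources used here. Per the file headers, each row holds a normalized count signal (counts over size factors, averaged over libraries), a log2 fold change and its SE, a Wald score, and a p-value with its adjusted p-value. Sequencing libraries took 500 ng of total RNA each, per the labels' protocols.

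The deposited adjusted p-values, over each whole table, were used as they stand, since no value of a single library allows a test of its own. Intervals are 1.96 SE each side. Implied levels assumed equal weights for control and knockdown, and were brought to one scale by the median implied control level of 6648 genes. Sums, intervals, ranks and re-adjusted p-values were computed with Python 3.11.15, pandas 2.3.3 and numpy 2.4.6. The sign procedure and the re-adjustment were tested on simulated data. The genes, sign reading and lists were chosen with earlier results of these data known. Named genes were the 4 members, the targeted genes, the other glutamate receptor genes, called genes of fixed lists and genes of like pattern. All but the members needed symbols that are not paired with the identifiers here, so the 4 targeted genes and the planned lists of receptor, synaptic and cell type marker genes were not analysed here. Alternatives covered the threshold, the adjustment, centring, the sign reading, the control weight and the minimum mean count.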

Additional observations from a re-analysis of the deposited data

How the results depend on the processing

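At an adjusted p-value under 0.01, the rise of Grin1 with Ehmt1 (0.70) no longer passed (adjusted p = 0.0124 in the authors' deposited table). Grin1 with Mbd5 (-0.71) passed at a threshold of 0.1, and also when p-values were adjusted over the 4 tables together (Benjamini-Hochberg, 0.0349). Either setting made 1 called member in that comparison. A Benjamini-Hochberg adjustment over all 15619 gene rows of the Mbd5 table gave Grin1 an adjusted p-value of 0.0632. That adjustment took in the gene rows without a deposited adjusted p-value, which 12590 genes had. Centring on the median turned the log2 fold change of Gria1 with Ehmt1 to 0.031, with no call either way. If a positive sign always favoured the control, the Ehmt1 values would be -0.70 (Grin1), -1.05 (Grin2a), -0.89 (Grin2b) and 0.0099 (Gria1), by the construction of that reading. The sign reading used came first at a minimum mean count of 50 (SD 0.040) and 1000 (SD 0.028). A control weight of 0.4 moved all 16 implied control levels by less than the SE of the fold change. All other calls of the 4 members kept their direction and their side of the threshold under these settings. The planned change of threshold for gene lists was not run, since the lists could not be matched. No paired analysis was possible because values of single libraries are not among the data used here. The depth of single libraries is unknown, and the deposited SEs limit what could be detected.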
